A study of Drosophila melanogaster with 8 samples.

Results

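Neurotransmitter synthesis and transport genes encode the enzymes that make the small transmitters of the fly and the carriers that load them into vesicles or take them back up. The 10 genes described here were the rows of the deposited expression table, which held 17321 genes, named ChAT, VAChT, Gad1, VGlut, VGAT, Vmat, Trh, Tdc2, Tbh and DAT, in these letter cases. They were measured in whole Drosophila melanogaster embryos of stages 14 and 15, pooled at 200 or more per library. The controls were of the wild-type strain Oregon R (OrgR). The mutants were both maternally and zygotically mutant for extra sex combs (esc), which encodes a subunit of Polycomb repressive complex PRC2, a histone methyltransferase. Neither the esc allele nor the genetic background of the mutants was given in the sources used here. Each genotype had 4 libraries, titled 1-1, 1-2, 2-1 and 2-2. The libraries sharing a genotype and a first number are called a set, and a set, as the mean of its 2 libraries, counted as 1 sample.

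A neuron's transmitter is set by the enzymes and carriers it makes. Acetylcholine is the main excitatory transmitter of the insect central nervous system, and glutamate is that of the fly neuromuscular junction. GABA is the main inhibitory transmitter. Small groups of neurons use the monoamines dopamine, serotonin, octopamine and tyramine. The genes come on as neurons mature late in embryogenesis. RNA of whole embryos was measured, so fewer cells of a type and less RNA per cell cannot be told apart in any value below. Stage was given only as a range, the same for all libraries. A difference in embryo age between the genotypes within that range cannot be told apart from an effect of esc.

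Levels are in RPKM, reads scaled by gene length and library depth, which allows levels of different genes to be compared. Relative depth was close between libraries, from 84.4% to 100% of that of the deepest one, and the number of reads behind a value is not known. As a check of the labels, esc itself fell from 11.7 ± 0.19 to 3.80 ± 0.32 RPKM (SD, n = 2 sets each; log2 change -1.40 ± 0.11, limma adjusted p = 0.00267), and the libraries of the 2 genotypes did not overlap. The difference between genotypes was broad. Of the 10547 genes whose mean reached 0.5 RPKM, 2208 rose in esc and 3329 fell, 52.5% in all. The split depended on scaling, as median-of-ratios scaling gave 2484 rises and 1616 falls, and quantile normalization 1754 and 4004. Over all these genes the log2 change had a median of -0.18 as deposited, and the same scalings moved it to -0.04 and -0.26. A log2 change is the fitted difference of log2(RPKM + 1), esc minus OrgR, given with its standard error (SE), and for low levels it is smaller than the change in RPKM itself. "Rose" and "fell" are used for an adjusted p under 0.05 over all tested genes.

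Gad1 and DAT rose in esc and none of the 9 genes tested fell, beside 31.6% of all tested genes, and all 9 log2 changes were above 0 in the values as deposited. After quantile normalization ChAT, VAChT, VGlut, VGAT, Tdc2 and Tbh had changes below 0 that did not pass. Of the 9 genes tested, 2 rose, beside 20.9% of all tested genes, so the number of rises was close to the background. All 4 esc libraries lay above all 4 OrgR libraries for Gad1, DAT, Vmat and Tbh, beside 26.2% of all tested genes. All 4 esc libraries lay below the OrgR libraries for none of the 10, beside 45.3% of all tested genes. DAT and Tbh reached the minimum mean of 0.5 RPKM only through their esc values, since their OrgR means were 0.443 and 0.336 RPKM. Trh did not pass it and was not tested.

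**Figure D1:**
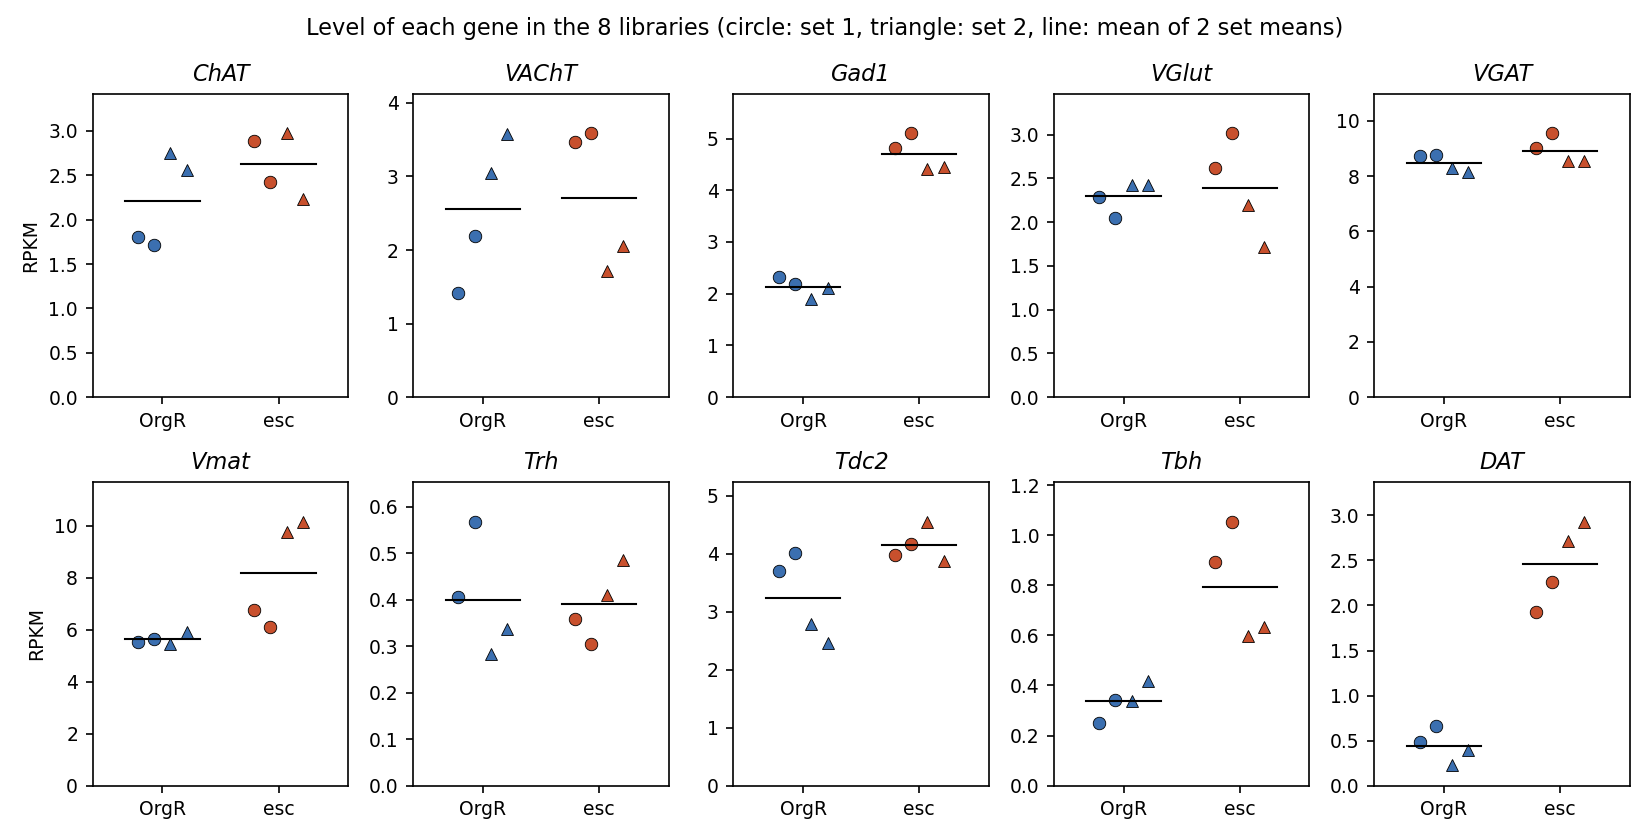
Level of each of the 10 genes in RPKM (linear axis from 0) in the 4 OrgR and 4 esc libraries. Circles are set 1, triangles set 2, and lines the mean of the 2 set means; the esc points lie above all OrgR points for Gad1, DAT, Vmat and Tbh, and for VAChT the 2 sets of each genotype lie apart.

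The acetylcholine genes ChAT and VAChT did not pass the test. ChAT encodes choline acetyltransferase, which makes the transmitter. It stood at 1.80, 1.71, 2.75 and 2.56 RPKM in OrgR libraries 1-1, 1-2, 2-1 and 2-2, and at 2.88, 2.42, 2.98 and 2.24 RPKM in their esc counterparts by number. OrgR set 1 lay below all esc libraries, and OrgR set 2 lay within their range. The mean was 2.21 ± 0.64 RPKM in OrgR and 2.63 ± 0.031 RPKM in esc (SD, n = 2 sets each; log2 change 0.19 ± 0.17, 95% interval -0.26 to 0.64, limma adjusted p = 0.385). VAChT encodes the vesicular acetylcholine transporter, which fills vesicles. It stood at 1.42, 2.20, 3.04 and 3.57 RPKM in OrgR and at 3.465, 3.59, 1.72 and 2.06 RPKM in esc, in the same order. OrgR set 2 and esc set 1 were the high sets, so the groups overlapped fully. The log2 change was 0.06 ± 0.32 with a 95% interval from -0.78 to 0.90 (limma adjusted p = 0.876), wide enough to hold both a fall and a rise.

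The annotation joins these genes into one locus. ChAT (FBgn0000303) spans chromosome arm 3R from 18705501 to 18732344 on the plus strand of dm6, and VAChT (FBgn0270928) lies within that span from 18705501 to 18718916. The annotated starts differ by 0 bp, the genes share 606 exonic bases and no coding base. The shared bases were 15.1% of the exonic bases of ChAT and 8.54% of those of VAChT, so reads in them could count for either gene. The ratio of VAChT to ChAT ran from 0.788 to 1.40 in the OrgR libraries and from 0.577 to 1.48 in the esc libraries. ChT, the high-affinity choline transporter that supplies ChAT with choline, starts 5′ of them on the same strand (18680604 to 18686739), and its end lies 18761 bp from the ChAT start. Its row, listed as CG7708, went from 1.51 ± 0.13 to 2.22 ± 0.10 RPKM (log2 change 0.37 ± 0.11, limma adjusted p = 0.0497). That call was lost in 16 of 24 alternative settings, and 69.5% of the exonic bases of ChT also belong to another gene.

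**Figure D2:**
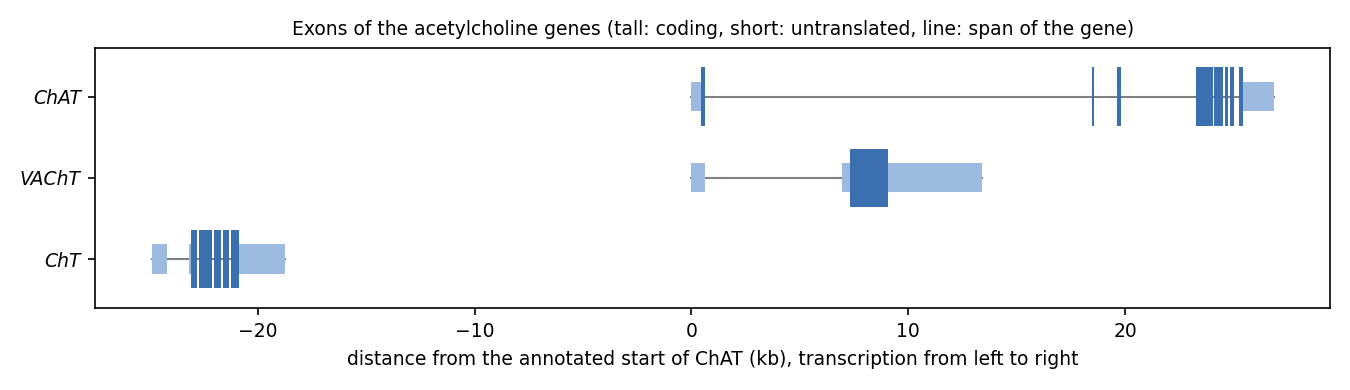
Annotated exons of ChAT, VAChT and ChT against the distance in kb from the ChAT start. Tall boxes are coding, short boxes untranslated, and lines the span of a gene; ChAT and VAChT share their start and first exon, and the rest of VAChT lies inside an intron of ChAT.

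In all, 13 other annotated genes overlap one of the 10 genes or are nested with it. Of these, 11 had a row of that name and 7 were tested. Among the tested genes 4 rose, 1 fell and 2 did not pass, beside 20.9% rises and 31.6% falls over all tested genes. The annotated genes inside ChAT introns on the other strand are CG7714, CG7715 and CG34283. CG7714 rose from 0.768 ± 0.25 to 21.3 ± 11 RPKM (limma adjusted p = 0.00442) and CG7715 from 6.07 ± 4.5 to 64.7 ± 18 RPKM (limma adjusted p = 0.00984). CG34283 was not tested (0.001 to 0.468 RPKM in OrgR and 0.297 to 0.791 RPKM in esc). None of them shares an exonic base with ChAT. ChAT, in whose span they lie, had a log2 change of 0.19, against 3.57 for CG7714 and 3.35 for CG7715.

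VGlut, the carrier that loads glutamate into vesicles and the marker of motor neurons in the fly, also did not pass. It stood at 2.28, 2.05, 2.425 and 2.42 RPKM in OrgR and at 2.62, 3.02, 2.20 and 1.71 RPKM in esc. The OrgR values were close together, with esc set 1 above all of them, esc library 2-2 below all of them and esc library 2-1 among them. The log2 change was 0.03 ± 0.17 (95% interval -0.41 to 0.46, limma adjusted p = 0.901). VGlut (FBgn0031424) lies on 2L from 2400295 to 2410662. It shares 39 exonic bases, 0.682% of its own, with CG18641 on the other strand, which rose from 0.507 ± 0.021 to 20.98 ± 5.8 RPKM (log2 change 3.84 ± 0.21, limma adjusted p = 0.00129).

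Of the GABA genes, the enzyme gene rose and the vesicle carrier gene did not pass. Gad1 encodes glutamic acid decarboxylase, which makes GABA from glutamate. It stood at 2.32, 2.18, 1.895 and 2.11 RPKM in OrgR and at 4.81, 5.105, 4.41 and 4.45 RPKM in esc. All esc libraries lay well above all OrgR libraries, and the sets of a genotype were close together. The mean rose 2.21-fold, from 2.13 ± 0.18 to 4.69 ± 0.38 RPKM (SD, n = 2 sets each; log2 change 0.86 ± 0.12, limma adjusted p = 0.00808). Gad1 (FBgn0004516, 3L, 4074077 to 4088744, minus strand) shares no exonic base with another annotated gene. CG14989, whose span overlaps it on the other strand, did not pass (34.6 ± 4.5 and 25.1 ± 7.2 RPKM, log2 change -0.47 ± 0.22, limma adjusted p = 0.142). The call was lost after quantile normalization (log2 change 0.27, limma adjusted p = 0.139) and held in the other 23 of 24 alternative settings.

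VGAT encodes the vesicular GABA transporter. It stood at 8.72, 8.76, 8.29 and 8.16 RPKM in OrgR and at 9.01, 9.56, 8.54 and 8.55 RPKM in esc. The groups overlapped, and VGAT had the highest mean of the 10 genes in each genotype. Its log2 change was 0.06 ± 0.11, with a 95% interval from -0.22 to 0.35 (limma adjusted p = 0.639), so that a change as large as that of Gad1 lay outside the interval. VGAT (FBgn0033911) lies on 2R from 14198478 to 14201249. The ratio of VGAT to Gad1 within a library was 3.75, 4.01, 4.37 and 3.87 in OrgR and 1.87, 1.87, 1.94 and 1.92 in esc. The ratios did not overlap between genotypes. The exact two-sided permutation test over the 4 set means gave p = 0.333, the smallest that 2 sets against 2 allow, so it cannot decide. The ratios of DAT to Vmat and of Tbh to Tdc2 gave the same p, and that of VAChT to ChAT did not.

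The monoamine genes differed among themselves. DAT encodes the plasma membrane transporter that takes dopamine back up. It stood at 0.490, 0.659, 0.225 and 0.397 RPKM in OrgR and at 1.92, 2.26, 2.72 and 2.93 RPKM in esc. The lowest esc library was well above the highest OrgR library, and esc set 2 was above esc set 1. The mean rose 5.55-fold, from 0.443 ± 0.19 to 2.46 ± 0.52 RPKM (SD, n = 2 sets each; log2 change 1.26 ± 0.17, limma adjusted p = 0.00776). The call held in all 24 alternative settings, where the log2 change ran from 0.69 after quantile normalization to 2.28 with a pseudocount of 0.1 RPKM. DAT (FBgn0034136) lies on 2R from 16558567 to 16565238 and shares no exonic base with another annotated gene. The table also has a row Dat, in other letter case, which is a different gene (speck, an arylalkylamine N-acetyltransferase).

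Vmat encodes the vesicular monoamine transporter, which loads dopamine, serotonin, octopamine and tyramine into vesicles. It stood at 5.515, 5.63, 5.43 and 5.93 RPKM in OrgR and at 6.75, 6.115, 9.75 and 10.2 RPKM in esc. All esc libraries were above all OrgR libraries, but esc set 2 was far above esc set 1. With that spread the log2 change of 0.45 ± 0.21 did not pass (95% interval -0.12 to 1.01, limma adjusted p = 0.139). It passed without esc set 1 (log2 change 0.73, limma adjusted p = 0.0372) and was 0.16 without esc set 2 (limma adjusted p = 0.417). Vmat (FBgn0260964) lies on 2R from 13513132 to 13534251. Of its exonic bases, 26.2% overlap CG13330 on the other strand, which did not pass (3.43 and 3.28 RPKM in OrgR and esc, limma adjusted p = 0.774) but fell after quantile normalization (log2 change -0.60, limma adjusted p = 0.0291). CG13331, which lies inside the Vmat span and shares no exonic base with it, rose from 0.472 ± 0.32 to 3.34 ± 0.64 RPKM (limma adjusted p = 0.00730), and CG13332, also inside it, was not tested (0.001 to 0.290 RPKM in OrgR and 0.293 to 0.609 RPKM in esc). CG13331 reached the minimum mean only through its esc values.

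The octopamine pathway runs from tyrosine through tyramine, made by tyrosine decarboxylase (Tdc2 in neurons), to octopamine, made by tyramine beta-hydroxylase (Tbh). Tdc2 stood at 3.71, 4.02, 2.78 and 2.46 RPKM in OrgR and at 3.98, 4.175, 4.555 and 3.88 RPKM in esc. OrgR library 1-2 lay among the esc libraries, and the other OrgR libraries lay below them. The log2 change was 0.29 ± 0.18 (95% interval -0.17 to 0.76, limma adjusted p = 0.214). Tbh stood at 0.249, 0.341, 0.339 and 0.417 RPKM in OrgR and at 0.893, 1.05, 0.598 and 0.632 RPKM in esc. The groups did not overlap, and the mean was 2.36-fold higher in esc (0.3365 ± 0.059 and 0.794 ± 0.25 RPKM), but the log2 change of 0.42 ± 0.14 did not pass (limma adjusted p = 0.0648). It passed with a pseudocount of 0.1 RPKM (log2 change 1.02, limma adjusted p = 0.0492) and without esc set 2 (log2 change 0.56, limma adjusted p = 0.0388), and in 5 of 23 alternative settings in all. Tdc2 (FBgn0050446) lies on 2R from 6684745 to 6689974, 4353 bp from Tdc1, its non-neuronal paralog. Tbh (FBgn0010329) lies on X from 7995697 to 8027394.

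Trh encodes the neuronal tryptophan hydroxylase of serotonin synthesis and was low in both genotypes. It stood at 0.406, 0.568, 0.283 and 0.338 RPKM in OrgR and at 0.359, 0.304, 0.410 and 0.486 RPKM in esc. The groups overlapped fully, and the means were 0.399 ± 0.12 and 0.390 ± 0.082 RPKM. With no filter on low values the log2 change was -0.01 ± 0.08 (limma adjusted p = 0.958). SerT, the serotonin reuptake transporter, was also low, at 0.392 to 0.804 RPKM in OrgR and 0.351 to 0.479 RPKM in esc, and was not tested either. Trh is annotated as Trhn (FBgn0035187, 3L, 1190384 to 1193173), and 4.08% of its exonic bases overlap CG13912 on the other strand, which went from 46.9 ± 3.5 to 35.3 ± 4.0 RPKM (log2 change -0.40 ± 0.12, limma adjusted p = 0.0486), a call lost in 14 of 24 alternative settings. The row trh, in lower case, is the tracheal regulator trachealess, at 40.7 and 39.2 RPKM.

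**Figure D3:**
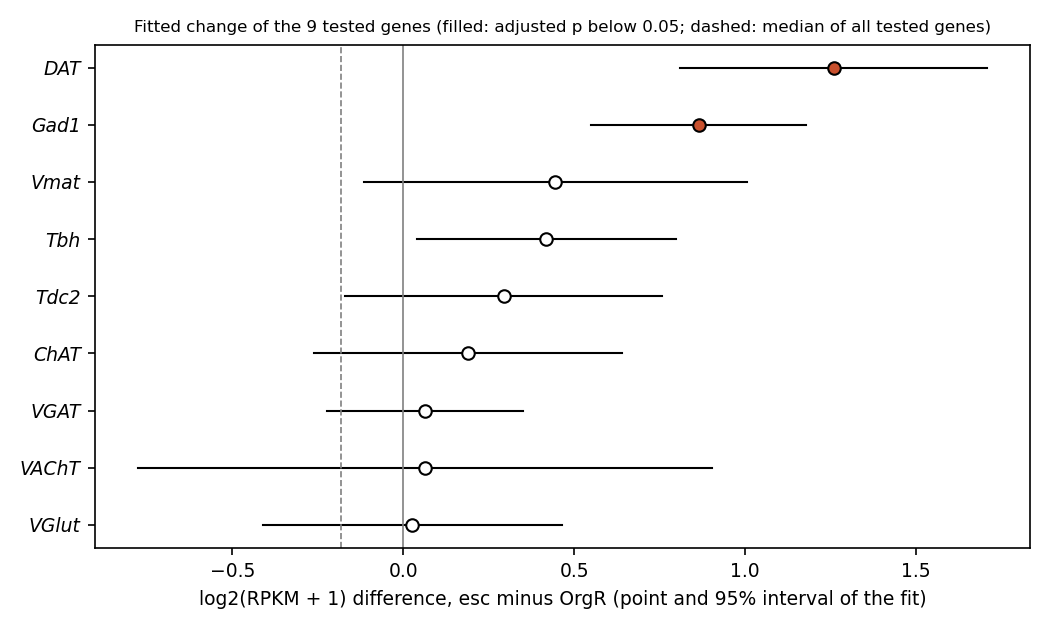
Fitted log2(RPKM + 1) difference, esc minus OrgR, of the 9 tested genes with the 95% interval of the fit. Filled points passed the test (DAT and Gad1), the dashed line at -0.18 is the median of all tested genes, and all 9 points lie to its right in these values as deposited.

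The order of the levels shifted around Gad1 and DAT. In OrgR, VGAT (8.48 RPKM) and Vmat (5.63 RPKM) came first, with ranges apart from each other and from the rest. Tdc2, VAChT, VGlut, ChAT and Gad1 followed between 3.24 and 2.13 RPKM, each overlapping its neighbour in this order. DAT, Trh and Tbh were lowest, between 0.443 and 0.336 RPKM, and also overlapped. In esc, VGAT (8.92 RPKM) and Vmat (8.19 RPKM) overlapped each other. Gad1 and Tdc2 came next at 4.69 and 4.15 RPKM, and DAT, at 2.46 RPKM, overlapped its neighbours ChAT (2.63 RPKM) and VGlut (2.39 RPKM). Summed over the 10 genes, the level was 26.9 to 28.4 RPKM in the OrgR libraries and 36.7 to 37.9 RPKM in the esc libraries. Gad1 and Vmat each added 2.57 RPKM to the mean difference and DAT 2.01 RPKM. With esc set 1 alone Vmat, which did not pass the test, added 0.804 RPKM and DAT 1.65 RPKM. Reads had no strand information, and 26.2% of the exonic bases of Vmat overlap CG13330. ChAT and VAChT share 606 exonic bases. The part of shared bases in these levels was not tested.

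Profiles over the 8 libraries were compared with 10546 other genes by the root-mean-square difference of centred log2(RPKM + 1) values. The closest gene was CG8192 for Gad1 (0.04), CG2930 for DAT (0.07), Cyp12e1 for Vmat (0.05), CG9743 for VGAT (0.03) and CG7280 for Tdc2 (0.06). It was CG10171 for ChAT (0.09), RhoGAP19D for VAChT (0.06) and GIIIspla2 for VGlut (0.08). The second closest gene was rpr for Gad1 (0.05), CG1674 for DAT (0.09), mmy for Vmat (0.06), fat-spondin for VGAT (0.03) and CG4945 for Tdc2 (0.07). For ChAT it was Irk1 (0.09), for VAChT Pka-C1 (0.06) and for VGlut Plod (0.08).

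Other genes of transmitter metabolism and transport included many that rose. Of 24 listed genes 22 were tested, and 13 rose, 3 fell and 6 did not pass. Over all tested genes 20.9% rose and 31.6% fell. The list had a median log2 change of 0.56, beside -0.18 for all tested genes. Without OrgR set 2, 8 rose. The largest rises were those of Ddc, the dopa decarboxylase of dopamine and serotonin synthesis, and ple, the tyrosine hydroxylase of dopamine synthesis. Ddc reached the minimum mean only through its esc values, with an OrgR mean of 0.444 RPKM. Ddc stood at 0.548, 0.412, 0.429 and 0.386 RPKM in OrgR and at 6.43, 6.26, 20.97 and 18.8 RPKM in esc (log2 change 3.10 ± 0.51, limma adjusted p = 0.0116; adjusted p = 0.0545 without OrgR set 2). ple stood at 5.50, 6.69, 3.34 and 3.38 RPKM in OrgR and at 27.5, 24.8, 35.6 and 34.7 RPKM in esc (log2 change 2.50 ± 0.29, limma adjusted p = 0.00554). Both enzymes also serve cuticle tanning in the epidermis, and the 12 epidermis and cuticle markers, which include both genes, summed to 231 to 277 RPKM in OrgR, 3626 and 3627 RPKM in esc set 1, and 6305 and 6667 RPKM in esc set 2. Ddc and ple were higher in esc set 2 than in esc set 1. Of the 10 genes, DAT, Vmat, Tdc2 and Trh were also higher there and 6 were lower. The epidermis and cuticle sum was higher too, as were 7 of the 12 markers, Ddc and ple among them, and 6 of 10 muscle markers. The sum is carried by cuticle protein genes such as Cpr65Ea and TwdlM, and grh, kkv, knk, t and vvl were lower in esc set 2. The part of epidermal RNA in these values was not tested. Hdc, the histidine decarboxylase of histamine synthesis, did not pass (1.93 ± 0.54 and 1.38 ± 0.22 RPKM, log2 change -0.29 ± 0.18, limma adjusted p = 0.215) but fell after quantile normalization (log2 change -0.87, limma adjusted p = 0.0141).

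Most of the other carriers rose. Of 7 tested carriers other than the 10 genes, 6 rose (ChT, Eaat1, Eaat2, Gat, NAAT1 and ine), beside 20.9% of all tested genes, and CarT, a carcinine transporter, fell. Eaat1 and NAAT1 reached the minimum mean only through their esc values, since their OrgR means were 0.214 and 0.406 RPKM. CarT reached it only through its OrgR values, with an esc mean of 0.392 RPKM. Eaat1 takes up glutamate into glia, and it stood at 0.160, 0.257, 0.147 and 0.292 RPKM in OrgR and at 2.52, 2.37, 3.10 and 3.22 RPKM in esc (log2 change 1.64 ± 0.14, limma adjusted p = 0.00295). Gat takes up GABA into astrocyte-like glia, and it stood at 6.39, 6.74, 7.61 and 8.18 RPKM in OrgR and at 20.98, 21.7, 19.1 and 19.99 RPKM in esc (log2 change 1.39 ± 0.13, limma adjusted p = 0.00379). Neither gene overlapped between genotypes. CarT went from 1.19 ± 0.11 to 0.392 ± 0.029 RPKM (log2 change -0.65 ± 0.11, limma adjusted p = 0.0118), a call lost in 2 of 23 alternative settings (adjusted p = 0.0555 without OrgR set 1). Among 9 genes grouped here as breakdown and recycling enzymes 5 rose and 2 fell, beside 20.9% and 31.6% of all tested genes. Of those that rose, b reached the minimum mean only through its esc values, with an OrgR mean of 0.326 RPKM. Another, t, is also among the epidermis and cuticle markers. The part of epidermal RNA in these rises was not tested. Ssadh, the succinate semialdehyde dehydrogenase that clears GABA carbon, fell most (61.5 ± 3.7 to 25.2 ± 0.011 RPKM, log2 change -1.25 ± 0.09, limma adjusted p = 0.00231).

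Of 46 transmitter receptor genes 30 were tested, and 15 rose, 2 fell and 13 did not pass, with a median log2 change of 0.34. This balance depended on scaling, as 3 rose and 9 fell after quantile normalization. Without OrgR set 2, 4 rose and 1 fell. By transmitter, 7 of 10 tested amine receptor genes rose, 6 of 11 glutamate receptor genes, 1 of 4 genes of GABA receptors and related subunits and 1 of 5 acetylcholine receptor genes, beside 20.9% of all tested genes. After quantile normalization 1 amine receptor gene rose and 2 fell, and 2 glutamate receptor genes rose and 4 fell, so no order of the transmitters can be read from these counts. Of 16 amine receptor genes 6 were not tested. Octbeta2R, TyrR and GABA-B-R3, which rose, reached the minimum mean only through their esc values. Their OrgR means were 0.385, 0.3945 and 0.2695 RPKM. GluRIIC, an essential subunit of the muscle glutamate receptor, rose from 3.45 ± 0.48 to 10.5 ± 0.56 RPKM (log2 change 1.38 ± 0.13, limma adjusted p = 0.00380), and the octopamine receptor gene Octbeta2R from 0.385 ± 0.15 to 1.72 ± 0.045 RPKM (log2 change 0.98 ± 0.13, limma adjusted p = 0.00713). Those that fell were the nicotinic receptor subunit gene nAChRbeta3 (30.9 ± 4.2 to 16.4 ± 1.1 RPKM, log2 change -0.87 ± 0.13, limma adjusted p = 0.0101; adjusted p = 0.0539 without esc set 2; all of its exonic bases also belong to another annotated gene) and GluRIID (18.4 ± 1.6 to 13.6 ± 1.1 RPKM, log2 change -0.41 ± 0.12, limma adjusted p = 0.0450), whose call was lost in 11 of 24 alternative settings. Muscle markers, which include none of the receptor genes, summed to 4641 to 6330 RPKM in OrgR and 15285 to 16532 RPKM in esc. Of the muscle markers 8 of 10 rose, beside 20.9% of all tested genes. Their part in the muscle receptor values was not tested.

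**Figure D4:**
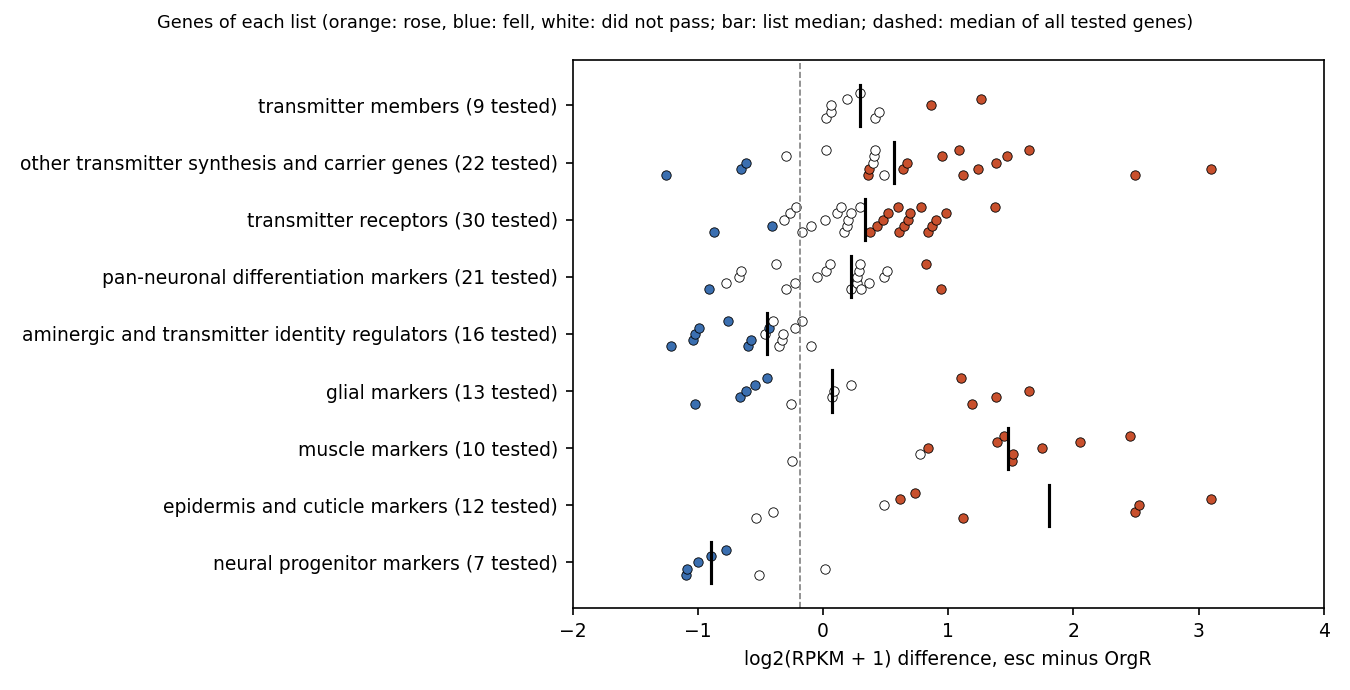
Fitted log2(RPKM + 1) difference, esc minus OrgR, of each tested gene of the 10 described here (first line) and of the other lists. Orange points rose, blue fell and white did not pass, bars are list medians and the dashed line is the median of all tested genes at -0.18; the scale stops at 4, and 3 epidermis and cuticle markers lie beyond it.

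Markers shared by all neurons gave no common direction. Of 21 tested pan-neuronal genes, 2 rose, 1 fell and 18 did not pass, beside 20.9% rises and 31.6% falls over all tested genes. Their median log2 change was 0.22, and 4 rose under median-of-ratios scaling. The RNA-binding protein gene elav, a defining neuronal marker of which 34.2% of exonic bases also belong to another gene, stood at 18.4, 22.7, 36.7 and 43.5 RPKM in OrgR and at 20.8, 21.7, 12.6 and 12.4 RPKM in esc (log2 change -0.77 ± 0.40, limma adjusted p = 0.164). The synaptobrevin gene nSyb (36.5 ± 2.1 and 38.5 ± 9.6 RPKM), the synaptotagmin gene Syt1 (10.9 ± 3.4 and 15.6 ± 4.6 RPKM) and the active zone gene brp (1.97 ± 0.29 and 2.96 ± 1.5 RPKM) did not pass either. Those that rose were Snap25 (1.93 ± 0.18 to 4.64 ± 0.30 RPKM, log2 change 0.94 ± 0.12, limma adjusted p = 0.00656) and Syn, the synapsin gene (5.91 ± 0.14 to 11.3 ± 1.3 RPKM, log2 change 0.82 ± 0.12, limma adjusted p = 0.00951; adjusted p = 0.0525 without OrgR set 2). nerfin-1, a zinc finger gene of young neurons, fell from 61.5 ± 8.0 to 32.2 ± 2.8 RPKM (log2 change -0.91 ± 0.13, limma adjusted p = 0.00905).

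The sets of a genotype differed in one recurring way, seen after the values were examined, in these neuronal genes and in other lists. In 16 of 21 pan-neuronal genes (76.2%), OrgR set 2 was above OrgR set 1 and esc set 1 above esc set 2, beside 28.1% of all tested genes. The pattern was not particular to them. It was seen in 8 of 13 glial markers (61.5%) and 10 of 16 regulators of transmitter and neuron identity (62.5%). It was seen in 1 of 10 muscle markers, 1 of 7 neural progenitor markers and 3 of 12 epidermis and cuticle markers. Of the 9 tested transmitter genes, 4 had this pattern, namely ChAT, VAChT, VGlut and Tbh. The summed level of the pan-neuronal genes was 423 to 452 RPKM in OrgR set 1, 542 to 589 RPKM in OrgR set 2, 480 to 483 RPKM in esc set 1 and 342 to 353 RPKM in esc set 2. Gad1 and DAT did not have the pattern.

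Transcription factors linked to transmitter and neuron identity fell or did not pass, where 31.6% of all tested genes fell and 20.9% rose. They were measured in whole embryos, so their levels cannot be taken as those of neurons alone. Of 16 tested genes 8 fell, none rose and 8 did not pass, with a median log2 change of -0.45, and 4 fell without OrgR set 2. eg, which is needed for the serotonin neurons of the ventral nerve cord, stood at 1.95, 1.73, 2.06 and 1.49 RPKM in OrgR and at 0.226, 0.203, 0.211 and 0.190 RPKM in esc, below all OrgR libraries (log2 change -1.21 ± 0.10, limma adjusted p = 0.00308). eg reached the minimum mean only through its OrgR values, with an esc mean of 0.2075 RPKM. tup, the fly islet gene of serotonin, dopamine and motor neurons, fell from 63.96 ± 7.4 to 30.5 ± 3.1 RPKM (log2 change -1.04 ± 0.13, limma adjusted p = 0.00671). Beside these falls, the dopamine genes ple and DAT rose, and the Trh values of both genotypes overlapped. As ple is also among the epidermis and cuticle markers, its rise cannot be assigned to dopamine neurons. Neural progenitor markers fell in 5 of 7 tested genes, led by ase (12.6 ± 0.63 to 5.37 ± 0.18 RPKM, log2 change -1.09 ± 0.11, limma adjusted p = 0.004004) and esg (62.0 ± 1.3 to 28.7 ± 2.5 RPKM, log2 change -1.09 ± 0.10, limma adjusted p = 0.00378). Among glial markers 4 of 13 rose and 5 fell, near the 20.9% and 31.6% of all tested genes. The rises were led by Eaat1 and Gat, and the falls by gcm (33.1 ± 0.49 to 15.8 ± 1.1 RPKM, log2 change -1.02 ± 0.10, limma adjusted p = 0.00395) and repo (29.8 ± 4.6 to 18.4 ± 1.7 RPKM, log2 change -0.66 ± 0.15, limma adjusted p = 0.0224). Under median-of-ratios scaling 5 rose and 2 fell, and with any 1 set left out 1 or 2 fell. gcm and repo encode transcription factors of glial fate, and the call of repo was lost in 5 of 24 alternative settings.

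**Figure D5:**
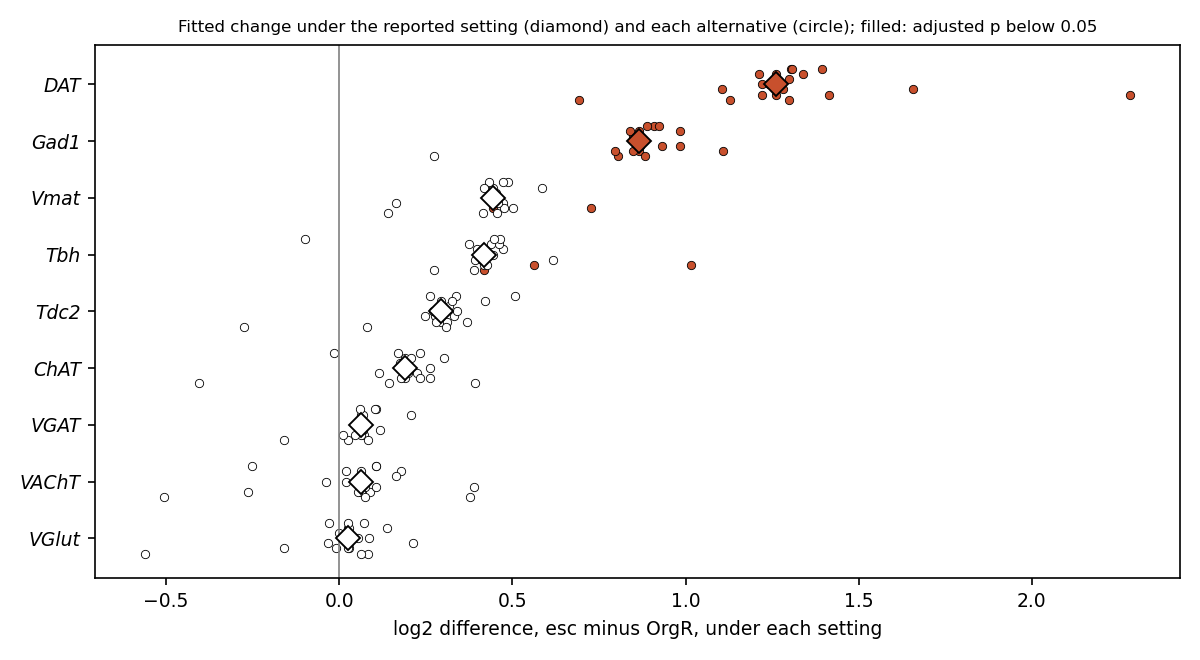
Log2 difference, esc minus OrgR, of the 9 tested genes as reported (diamonds) and under each alternative setting (circles); filled symbols passed. DAT passed throughout and Gad1 in all but 1 setting, where its value was 0.27, while ChAT, VAChT, VGlut, VGAT and Tdc2 passed in none.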

How the data were processed

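RNA of 8 libraries of pooled embryos was sequenced as paired reads of 150 bp without strand information, per the labels' protocols. The authors deposited linear, unfiltered RPKM values, 1 column per library. Reads were placed on dm6, as the submitters' processing notes name it. The gene models, the counting program and the aligner are not given in the sources used here. A value of 0.001 RPKM, the lowest, filled 27.6% of all cells and was treated as a floor. Relative depth was read from ratios of values between 0.06 and 1.5 RPKM, which peak where a pair of libraries has equal small read numbers.

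Every gene whose mean over all 8 columns reached 0.5 RPKM entered the test, on log2(RPKM + 1) averaged within sets, with limma 3.58.1 in R 4.3.3 (lmFit, eBayes with trend, two-sided, Benjamini-Hochberg over 10547 genes, 2 residual and 4.55 moderated degrees of freedom). Nothing in the labels says that sets were separate collections, so the p-values rest on differences between sets that may be technical. Means are given ± SD of 2 set means. Set numbers were not taken as pairing the samples. Positions and exons are from the Ensembl annotation (dm6 coordinates, 1-based). Members and gene lists were chosen with earlier results of these data known. Named beyond the 10 genes were, per list, up to 2 largest rises and 2 largest falls among those past the threshold, with elav, nSyb, Syt1, brp, ple, Ddc, ChT, SerT, Hdc and esc, the 2 closest profiles of each member that averaged 1 RPKM or more, and genes overlapping a member or sharing its name. Of the overlapping genes, those listed below 0.5 RPKM were not tested.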

Additional observations from a re-analysis of the deposited data

Results flagged for a closer look

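In each genotype, a library was looked for whose gap to the nearest of the other 3 exceeded Dixon's critical share of the range. Of 108 groups of 4 libraries examined, 3 held one, none of them a value of the 10 transmitter genes. The critical share gives about 1 in 20 by chance for 4 independent values. Libraries of a set were correlated (consensus 0.79), so that rate does not apply to these groups. Prm stood at 354 RPKM in esc 2-1, against 328 to 332 RPKM in the other esc libraries. ase stood at 4.965 RPKM in esc 1-1, against 5.48 to 5.52 RPKM. esc stood at 4.401 RPKM in esc 2-1, against 3.56 to 3.66 RPKM. Each of these values lay outside the range of the OrgR libraries.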

How the results depend on the processing

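Fitted changes and counts of calls were recomputed under 24 alternatives, fewer for genes that a filter removes (Tbh and CarT 23, Trh 1), of which the crossed set block was chosen after the data were seen. Ratios, the order of levels and profile matches were not. Without a set, the lone set was assumed to vary like those of the other genotype. Of 48 genes, 23 kept direction and side of the threshold throughout. The 2 rises among the 10 genes became 1 after quantile normalization, 4 with 8 libraries as separate samples, and between 2 and 3 with a set or library left out. All changed genes were 2071 to 5730 with a set or library left out, rises 1302 to 2237 and falls 736 to 3509, against 5537, 2208 and 3329. Falls numbered 1616 under median-of-ratios scaling and 5050 with 8 separate samples. With the set number as a replicate block 2467 genes changed and 899 fell, Gad1 and DAT still passed, 6 receptor genes rose and 1 fell (amine receptors 1 and 0, glutamate receptors 3 and 0), carriers gave 4 and 0, and glial markers 4 and 1. Same-numbered sets deviated in opposite directions (r = -0.34 across genes, which are not independent), and crossing the numbers gave 6717 changed genes and 3 of the 10. After quantile normalization the change turned below 0 for ChAT (-0.40), VAChT (-0.51), VGlut (-0.56), VGAT (-0.16), Tdc2 (-0.27), Tbh (-0.10), ChT (listed as CG7708, -0.25) and brp (-0.24). Median-of-ratios scaling turned CG13330 (0.078) and trh (0.11) above 0, as quantile normalization did trh (0.033). The cause was not tested. With a set or library left out, the log2 change ranged from -0.015 to 0.39 for ChAT, -0.26 to 0.39 for VAChT, -0.16 to 0.21 for VGlut, -0.20 to 0.31 for nSyb, -0.14 to 0.043 for CG13330, -0.11 to 0.010 for trh and -0.033 to 0.76 for brp, which passed without esc set 2. Read numbers behind values under 1 RPKM (Trh, Tbh and DAT in OrgR) are unknown, which limits them most.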
